A study of Drosophila melanogaster with 8 samples.

Results

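The peak-dense domain of chromosome arm 3R runs over 450 kb, from 3R 23350000 to 23800000 of dm6, and its members are the peaks of phosphorylated p38 (P-p38) whose summit lies between those limits. They were chosen by summit position alone, in a window picked because peaks were known to be dense there. They number 357 of the 17755 peaks on the main chromosome arms, with 162 in H2O2 replicate 1, 73 in H2O2 replicate 2, 71 in control replicate 1 and 51 in control replicate 2. The summit density, the number of peaks and their sharing between libraries are therefore described below without support from them for any statement on the rest of the genome.

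The peaks came from chromatin of wild-type Drosophila S2 cells, a haemocyte-like line of embryonic origin, precipitated with an antibody to P-p38. The H2O2 group was exposed to 10 mM H2O2 for 30 min, and the control group received an equal volume of culture medium. Each group has 2 immunoprecipitated libraries with 1 deposited peak list each, and 4 input samples of the series (2 per group) were not analysed here. All libraries come from 1 cell line, and nothing in the labels says that replicates were separate cultures, so each permutation p-value reflects the spread among these libraries, which may be technical.

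p38 is a MAP kinase that becomes phosphorylated, and thereby active, when cells meet oxidative, osmotic or heat stress. Its known targets are proteins, among them transcription factors and other kinases. In budding yeast the p38 homologue Hog1 is known to be recruited to the chromatin of stress-responsive genes. No sequence of these peaks is shown, since no genome sequence was used here.

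The domain holds 65 protein-coding genes and 11 other genes of the RefSeq annotation of Release 6 of the genome, and protein-coding genes take up 74.1% of its sequence. Read along the arm, it falls into 4 successive segments. A left block of 20 kb (23.35 to 23.37 Mb) over the DNA polymerase, ribosomal protein and Sec13 genes held mostly control summits. An H2O2-dense stretch of 240 kb (23.37 to 23.61 Mb) over chemoreceptor genes, UDP-glycosyltransferase genes, CG4374 and beat-IV held mostly H2O2 summits. A control-dense stretch of 80 kb (23.61 to 23.69 Mb), most of it inside the gene CG31145, held summits of every library with more of them in control. A right part of 110 kb (23.69 to 23.80 Mb) held few summits until the gene mbc, whose body held only control summits.

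These limits were read from the summits. A 10 kb bin was counted for the group with the higher mean share of its libraries' peaks, empty or tied bins joined the run before them, and runs of at least 3 bins were called stretches. The left block is a run of 2 bins inside the domain and so is no stretch there, but it continues past the left limit: on the whole arm the same rule gives a control-dense run of 80 kb from 23290000 to 23370000, with 0 and 5 summits in the H2O2 libraries and 47 and 31 in the control libraries. Because the segments were defined by the outcome, their counts are descriptions and no test is given for them.

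**Figure D1:**
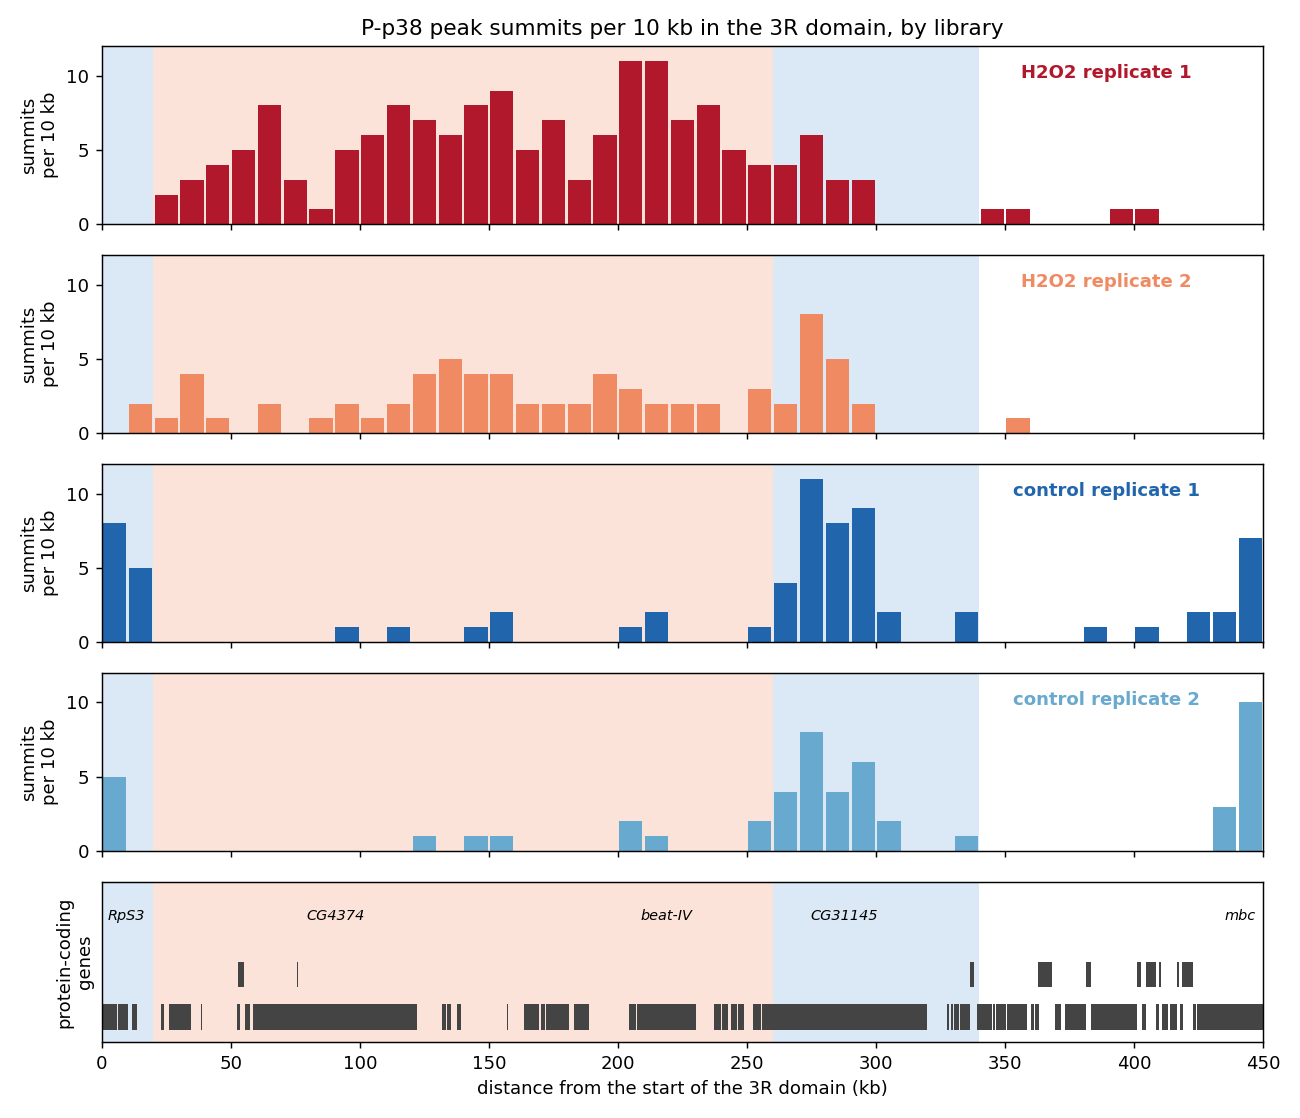
Number of peak summits per 10 kb (vertical axis, linear) against the distance from the start of the domain in kb (horizontal axis), with 1 row per library, H2O2 libraries above control libraries, and the protein-coding genes at the bottom. Red shading marks the H2O2-dense stretch and blue shading the left block and the control-dense stretch. The H2O2 libraries fill the red part with 142 and 53 summits, against 9 and 8 in the control libraries.

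Over the whole domain the H2O2 libraries had more summits than the control libraries, by an amount within the spread between the H2O2 replicates. The mean was 117.5 ± 62.9 summits in H2O2 and 61.0 ± 14.1 in control (SD, n = 2 each). The ratio was 1.93 and the exact two-sided permutation p was 0.333. That is the smallest p that 2 against 2 libraries allow, so no comparison of the groups here can pass 0.05. H2O2 replicate 1 held most of the excess, since without it the log2 ratio was 0.26, against 0.95 with all libraries. As a share of each list the domain held 2.52% of the peaks of H2O2 replicate 1 (Wilson 95% interval 2.16 to 2.93), 1.82% of H2O2 replicate 2 (1.45 to 2.28), 1.65% of control replicate 1 (1.31 to 2.07) and 1.71% of control replicate 2 (1.30 to 2.24). The intervals cover counting error only. The domain makes up 0.336% of the length of the arms, taken up to the last gene or peak end.

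Peaks covered 78682 and 23381 bp of the domain in the H2O2 libraries and 43860 and 23075 bp in the control libraries. The groups overlapped in this measure (mean 51031.5 ± 39104 bp in H2O2 and 33467.5 ± 14697 bp in control, SD, n = 2 each, exact two-sided permutation p = 0.667), and without H2O2 replicate 1 the direction turned, with a log2 ratio of -0.52. The median peak width was 390.5 and 295 bp in H2O2 and 338 and 353 bp in control. The groups overlapped here as well, and the mean difference of -2.75 bp is far below the spread between replicates (exact two-sided permutation p = 1.0).

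H2O2 summits of the domain lay inside genes less often than control summits in these libraries. Of the domain's summits 66.7% and 61.6% in the H2O2 libraries lay inside a protein-coding gene, against 90.1% and 94.1% in the control libraries. The means were 64.2% ± 3.55 in H2O2 and 92.1% ± 2.81 in control (SD, n = 2 each), a difference of -28.0 percentage points that is larger than either spread (exact two-sided permutation p = 0.333, the smallest possible). The difference did not show inside the H2O2-dense stretch, where the means were 56.5% in H2O2 and 59.0% in control. Nor did it show inside the control-dense stretch, at 100% in each group. Peaks outside the domain differed in the same direction as the whole domain, with 64.2% and 71.7% in the H2O2 lists and 86.4% and 91.0% in the control lists. Summits within 500 bp of a gene end were few in the domain, at 12.3% and 10.96% in H2O2 and 8.45% and 5.88% in control. Outside the domain they made up 8.91% and 13.5% in the H2O2 lists, below the domain value in replicate 1 and above it in replicate 2, and 19.96% and 34.0% in the control lists.

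Peaks of the domain were numerous but ranked low or near the middle of their lists. The authors' fold enrichment was turned into a percentile within each list, because the sources used here do not name the background behind it. The median percentile of domain peaks was 49.8 and 30.8 in the H2O2 libraries and 28.6 and 24.9 in the control libraries, whereas peaks outside the domain had medians of 50.04 to 50.41 in the 4 lists. The group means were 40.3 ± 13.4 in H2O2 and 26.8 ± 2.63 in control (SD, n = 2 each, exact two-sided permutation p = 0.333). The difference of 13.5 points was 4.03 without H2O2 replicate 1 and 23.04 without H2O2 replicate 2. At a q of 1e-05 or less the domain kept 8 and 1 peaks in H2O2 and 11 and 4 in control, so that the order of the groups turned.

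**Figure D2:**
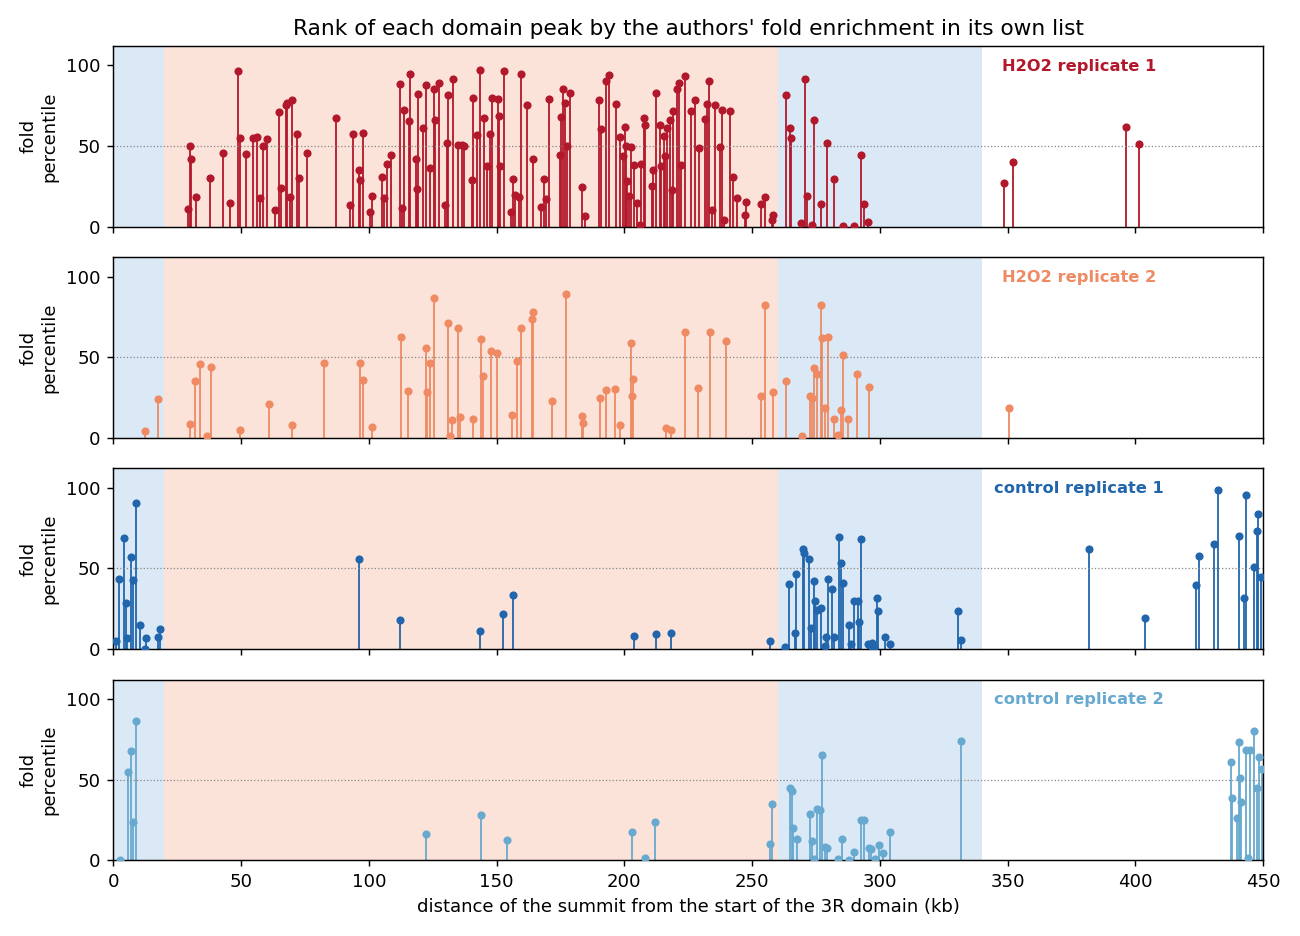
Percentile of each domain peak by the authors' fold enrichment within its own list (vertical axis, 0 to 100) against the distance of its summit from the start of the domain in kb, with 1 row per library and the shading of the segments as red for H2O2-dense and blue for the left block and control-dense. The dotted line is percentile 50. The highest H2O2 peaks, up to percentile 96.8, lie in the red stretch, and the highest control peak, at 98.9, lies over mbc at the right end.

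The left block carried control peaks over housekeeping genes. PolE1 encodes the catalytic subunit of DNA polymerase epsilon, ATPsynCF6 a coupling factor of the mitochondrial ATP synthase, Sec13 a coat protein of vesicles from the endoplasmic reticulum that is also part of the nuclear pore, and RpS3 a protein of the small ribosomal subunit. The block held 0 and 2 summits in the H2O2 libraries and 13 and 5 in the control libraries. Its first 10 kb, from 23.35 to 23.36 Mb, had 0 and 0 summits in the H2O2 libraries, which covered 0 bp there, and 8 and 5 summits in the control libraries, which covered 5725 and 3964 bp.

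Ranked by the lower of the 2 control percentiles, RpS3 gave the strongest region of the domain that both control libraries and neither H2O2 library had. It spans 1519 bp (3R 23358639 to 23360157), at percentile 90.4 of control replicate 1 and 86.4 of control replicate 2, with an authors' fold of 2.08 and 2.15. Peaks covered 0% and 0% of the RpS3 gene in the H2O2 libraries, against 96.4% and 90.8% in the control libraries. Sec13 had 0 and 0 summits in the H2O2 libraries and 2 and 2 in the control libraries, ATPsynCF6 had 0 and 0 against 1 and 1, and PolE1 had 0 and 0 against 4 and 1. CG4408, the last gene of the block before the switch, had 0 and 1 summits in the H2O2 libraries and 2 and 0 in the control libraries, so it favoured neither group in both replicates.

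The switch to H2O2-dense bins fell between CG4408 and CG42827, in a gap of 9349 bp without a protein-coding gene (3R 23363575 to 23372923). The bin from 23.36 to 23.37 Mb had 0 and 2 summits in the H2O2 libraries and 5 and 0 in the control libraries, and the next bin had 2 and 1 in the H2O2 libraries and 0 and 0 in the control libraries. CG42827 and its neighbour CG42828 had no summit in any library. From 23.37 to 23.44 Mb neither control library had a summit.

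In the H2O2-dense stretch H2O2 replicate 1 had a summit in each of the 24 bins and H2O2 replicate 2 in 21 of them, against 7 and 6 bins in the control libraries. Per 10 kb, H2O2 replicate 1 had 1 to 11 summits with a median of 6, and H2O2 replicate 2 had 0 to 5 with a median of 2. Each control library had 0 to 2 with a median of 0. In 16 of the 24 bins both control libraries were at 0. The base pairs under peaks per 10 kb ran to 6001 in H2O2 replicate 1, in the bin from 23.50 to 23.51 Mb, and to 1776 in H2O2 replicate 2, in the bin from 23.48 to 23.49 Mb. They ran to 509 in control replicate 1 and 508 in control replicate 2. In all, the stretch held 142 and 53 H2O2 summits, against 9 and 8 control summits, and peaks covered 28.95% and 6.90% of its sequence in the H2O2 libraries against 1.08% and 0.857% in the control libraries. The libraries of 1 treatment thus differed as well: H2O2 replicate 1 covered 69483 bp of the stretch and H2O2 replicate 2 covered 16562 bp.

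The few control peaks of this stretch mostly overlapped peaks of H2O2 replicate 1. Of those of control replicate 1, 8 of 9 overlapped a peak of H2O2 replicate 1 by at least 1 bp, and of those of control replicate 2, 6 of 8 did. With H2O2 replicate 2 the overlaps were 4 of 9 and 4 of 8. Peaks of H2O2 replicate 1 cover 28.95% of the stretch. Of the peaks of H2O2 replicate 2, 45 of 53 (84.9%) overlapped a peak of H2O2 replicate 1, and 47 of 142 (33.1%) overlapped the other way. Outside the domain these shares were 39.0% and 24.2%.

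The longest gene of the stretch, CG4374 (3R 23408684 to 23472278, 63595 bp), held 32 and 8 summits in the H2O2 libraries and 2 and 1 in the control libraries. H2O2 peaks covered 22.9% and 3.70% of it, and control peaks covered 1.12% and 0.225%. The H2O2 summits lay from 1.66 to 62.6 kb from its lower end in replicate 1 and from 2.23 to 56.8 kb in replicate 2. They were not evenly spread. Within the gene the bin from 23.41 to 23.42 Mb held 8 and 2 H2O2 summits, and that from 23.43 to 23.44 Mb held 1 and 1. The gene beat-IV (3R 23557412 to 23580077), of the immunoglobulin-superfamily beaten path family known for motor axon guidance, held 20 and 4 summits in the H2O2 libraries and 2 and 2 in the control libraries. Both genes had a summit in each library, so here the groups differed in number and not in presence.

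Of the 8 chemoreceptor and UDP-glycosyltransferase genes of the stretch, 3 had a summit in both H2O2 libraries, 2 in H2O2 replicate 1 alone and 3 in no library, and none had a control summit. On the arms 5.65% of protein-coding genes had a summit in both H2O2 libraries, and 8.53% had summits of H2O2 libraries alone. The stretch was drawn where H2O2 summits were denser, so higher shares in it follow from that choice. Ir94d, Ir94e, Ir94f, Ir94g and Ir94h encode ionotropic receptors, a family of insect chemosensory receptors related to glutamate receptors. Ir94f had 1 and 2 summits in the H2O2 libraries and 0 and 0 in the control libraries, Ir94g had 1 and 1 against 0 and 0, and Ir94d and Ir94e had 1 in H2O2 replicate 1 alone. Ir94h had no summit in any library. Of the UDP-glycosyltransferase genes, which encode enzymes that conjugate sugars to small molecules, Ugt303B3 had 2 and 2 summits in the H2O2 libraries and 0 and 0 in the control libraries, while Ugt303B1 and Ugt303B2 had none in any library. Neighbouring members of a family thus differed, and the presence of a summit did not extend to every gene of either cluster. These genes are paralogs, and the sources used here do not say how reads that match more than 1 of them were treated.

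Irk2, an inwardly rectifying potassium channel gene, had 3 and 2 summits in the H2O2 libraries and 0 and 0 in the control libraries. CG10175 had 6 and 1 against 0 and 0, CG4393 had 4 and 3 against 0 and 0, CG10182 had 3 and 1 against 0 and 0, and CG10184 had 2 and 2 against 0 and 0. Of the 26 protein-coding genes with their midpoint in the stretch, 17 had summits of H2O2 libraries alone, 2 (CG4374 and beat-IV) of both groups, 0 of control libraries alone and 7 of none. Among those 17, CG4393, Ir94f, Ir94g, Irk2, CG10175, Ugt303B3, CG10182 and CG10184 had summits in both H2O2 libraries. The others had them in H2O2 replicate 1 alone. Of all protein-coding genes on the arms, 8.53% had summits of H2O2 libraries alone. The stretch was drawn where H2O2 summits were denser than control summits, so a higher share in it follows from that choice.

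Summits of the stretch lay in genes about as often as its sequence does. Protein-coding genes take up 62.0% of it, and 62.0% and 50.9% of the H2O2 summits lay in them, against 5 of 9 and 5 of 8 control summits. The gap of 17727 bp between Ir94h and CG34289 held 14 and 6 summits in the H2O2 libraries and 3 and 2 in the control libraries. The gap of 15414 bp between Ugt303B2 and CG10164 held 13 and 7 against 1 and 1. The 9586 bp between CG4374 and Ir94f held 8 and 5 against 0 and 0.

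**Figure D3:**
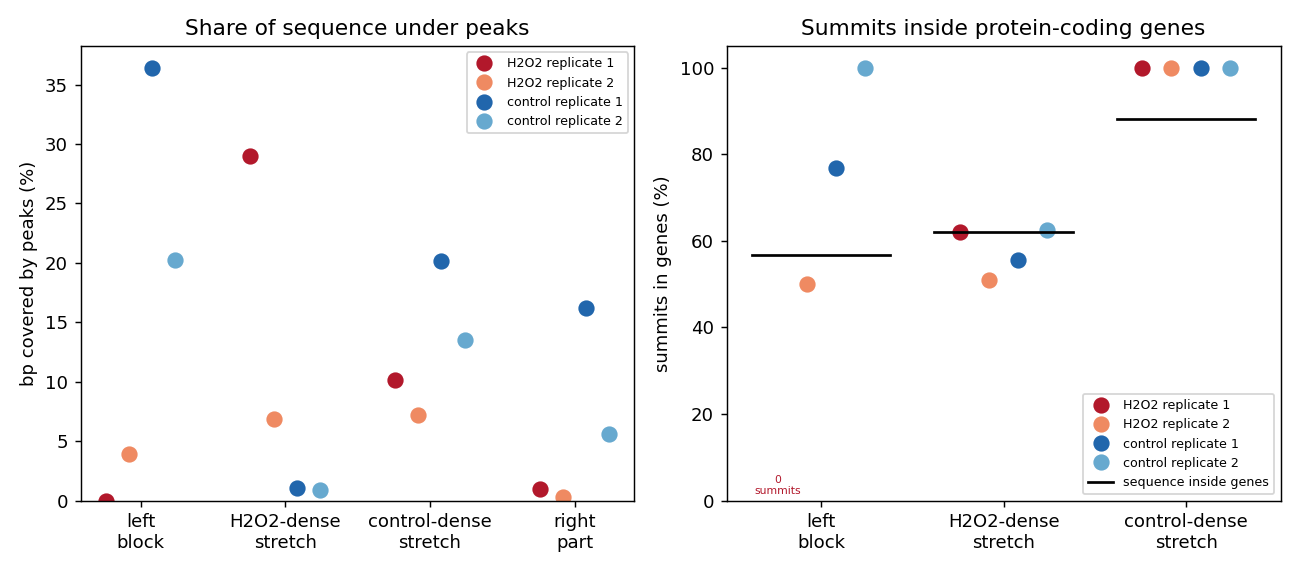
Left, percentage of each segment's sequence under peaks, and right, percentage of summits inside protein-coding genes, with 1 point per library, H2O2 libraries left of control libraries within each segment, and a black line at the percentage of the segment's sequence inside protein-coding genes. In the H2O2-dense stretch the points for summits in genes lie at 50.9% to 62.5%, around the line at 62.0%, and in the control-dense stretch they lie at 100%, above the line at 88.2%. The right part is left out of the right panel because H2O2 replicate 2 has 1 summit there.

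The 5 strongest regions of both H2O2 libraries and neither control library, ranked by their lowest percentile, lay mostly outside genes. This does not hold for all 34 such regions of the domain, since others lay in genes such as CG4393, CG4374 and CG10184. The first of the 5 spans 842 bp (3R 23475387 to 23476228) between CG4374 and Ir94f, at percentile 85.4 of H2O2 replicate 1 and 86.5 of H2O2 replicate 2, with an authors' fold of 1.85 and 1.83. The next ones were a 528 bp region in the same gap (3R 23480726 to 23481253, lowest percentile 70.9), a 595 bp region between CG34289 and Irk2 (3R 23509311 to 23509905, 68.4) and a 463 bp region between beat-IV and CG10182 (3R 23583154 to 23583616, 65.8). A 669 bp region in beat-IV (3R 23573535 to 23574203, 65.7) was the only one of these 5 inside a protein-coding gene. The highest single H2O2 peak of the domain stood at percentile 96.8 of H2O2 replicate 1 (fold 2.10). It belongs to a region of 765 bp between Ir94h and CG34289 (3R 23493223 to 23493987) that all 4 libraries had, at percentile 61.1 of H2O2 replicate 2, 11.01 of control replicate 1 and 27.9 of control replicate 2.

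The switch back fell within CG31145, close to its lower end. In the bin from 23.60 to 23.61 Mb, which holds CG10184 and the first part of CG31145, the H2O2 libraries had 4 and 3 summits and the control libraries 1 and 2. From 23.61 to 23.62 Mb the counts were 4 and 2 in H2O2 and 4 and 4 in control, and from 23.62 to 23.63 Mb they were 6 and 8 in H2O2 and 11 and 8 in control. From 23.63 to 23.64 Mb the groups overlapped, with 3 and 5 summits in the H2O2 libraries and 8 and 4 in the control libraries. From 23.64 to 23.65 Mb the H2O2 libraries had 3 and 2 summits and the control libraries 9 and 6. At this switch the control summits became more frequent while the H2O2 summits went on, up to the bin that ends at 23.65 Mb. The control summits went on to the next bin, 23.65 to 23.66 Mb, with 2 and 2 against 0 and 0 in the H2O2 libraries. In the bin from 23.62 to 23.63 Mb peaks covered 4315 and 2592 bp in the H2O2 libraries and 3376 and 3332 bp in the control libraries. In the bin from 23.64 to 23.65 Mb the H2O2 libraries had 866 and 621 bp and the control libraries 4892 and 2835 bp.

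CG31145 (3R 23605751 to 23669659, 63909 bp) is nearly as long as CG4374 and had the opposite balance of groups. It held 18 and 18 summits in the H2O2 libraries and 35 and 26 in the control libraries, and the groups did not overlap in the deposited lists. At q of 0.01 or less the control-dense stretch as a whole held 9 and 11 summits in the H2O2 libraries and 22 and 11 in the control libraries, so that the groups met. At q of 1e-05 or less it held 1 and 0 against 3 and 0. H2O2 peaks covered 13.7% and 9.31% of the gene, and control peaks covered 25.3% and 16.7%. The summits stopped short of the upper end in every library: the last lay 39.67 and 40.05 kb from the lower end in the H2O2 libraries and 48.1 and 48.0 kb in the control libraries. With neither strand nor exons in the annotation table used here, this end cannot be called the start or the end of transcription.

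All summits of the control-dense stretch lay inside protein-coding genes, 16 and 17 in the H2O2 libraries and 36 and 25 in the control libraries, where 88.2% of its sequence is in genes. Most H2O2 peaks of this stretch overlapped control peaks. Of the H2O2 peaks, 11 of 16 of replicate 1 and 14 of 17 of replicate 2 overlapped a peak of control replicate 1, compared with 8 of 142 and 4 of 53 in the H2O2-dense stretch, where control peaks were few. Apart from CG31145, eIF3d1, which encodes a subunit of translation initiation factor 3, was the only gene of the stretch with summits, 0 and 0 in the H2O2 libraries and 2 and 1 in the control libraries. GILT2 and GILT3, homologues of a lysosomal thiol reductase, and SPE, the protease that cleaves the Toll ligand Spätzle, had none in any library, nor had CG16710 and CG18754 next to SPE.

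**Figure D4:**
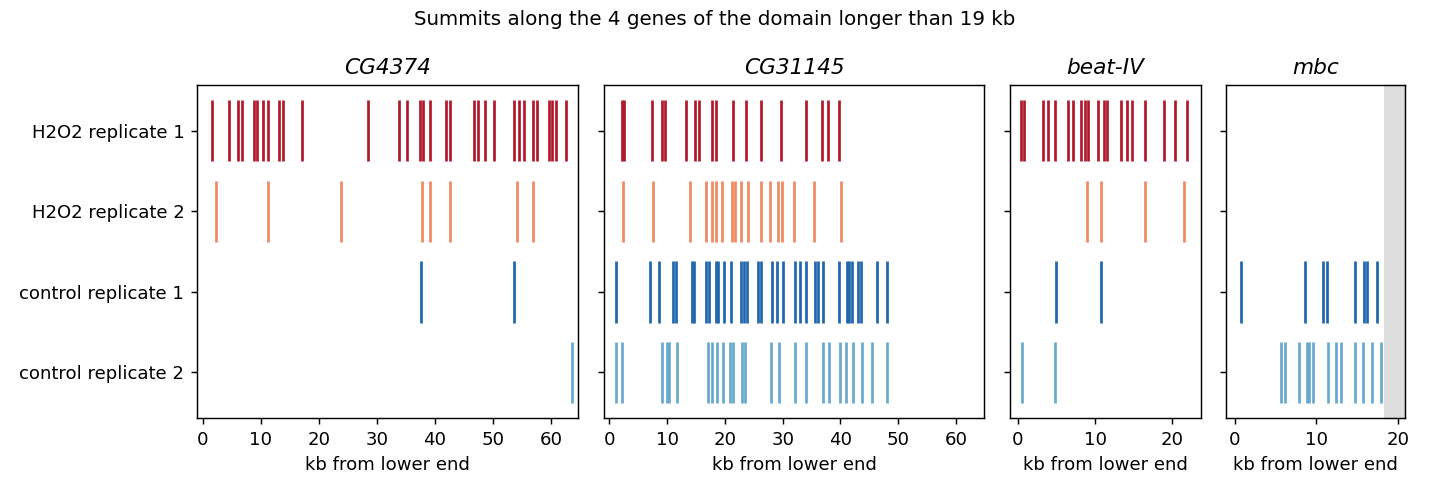
Positions of peak summits (vertical ticks) along the 4 genes of the domain longer than 19 kb, as the distance in kb from the end with the lower coordinate, with 1 row per library and H2O2 libraries above control libraries. Grey marks the part of mbc outside the domain, where ticks are not drawn. CG4374 and beat-IV carry mostly H2O2 ticks, CG31145 carries ticks of every library up to 48.1 kb, and mbc carries control ticks alone.

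The right part held 4 and 1 summits in the H2O2 libraries and 13 and 13 in the control libraries. Its first 90 kb are gene-dense and hold few peaks beside the other segments. The arms are sparse as well, since their median window of 450 kb held 9 and 9 H2O2 summits and 11 and 8 control summits. This part is therefore not shown to be poorer in peaks than the arms. Of the 27 protein-coding genes with their midpoint in the right part, 18 had no summit in any library, and the same share over the arms is not given here. The longest genes of the domain without a summit in any library were CG10365 (8169 bp), CG10254 (5977 bp), nau (5544 bp), tst (4461 bp) and Hrd3 (3935 bp), and all of them have their midpoint here. nau encodes the fly MyoD homologue, a muscle transcription factor, tst a helicase of the cytoplasmic exosome's Ski complex, and Hrd3 a component of the degradation of endoplasmic reticulum proteins. H2O2 replicate 1 had 1 summit in each of prt, Gba1a and RanBP3, and control replicate 1 had 1 in each of the proteasome genes Rpn9 and Rpt5. None of these genes had a summit in both libraries of a group. The neighbouring genes CG10252, CG31468, CG10232, PTPMT1 and SdhD had none in any library. The runs called in this part therefore rest on few peaks: that from 23.69 to 23.73 Mb, an H2O2-dense stretch of 4 bins by the rule, holds 2 and 1 summits in the H2O2 libraries and 0 and 0 in the control libraries. A control-dense stretch of 5 bins from 23.75 to 23.80 Mb holds 1 and 0 summits in the H2O2 libraries and 12 and 13 in the control libraries, most of them over mbc. It continues past the right limit: on the whole arm the same rule gives a run of 160 kb from 23750000 to 23910000. That run holds 1 and 2 summits in the H2O2 libraries and 14 and 14 in the control libraries.

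The last bins turned to control over mbc (3R 23781765 to 23801634), which encodes a DOCK-family activator of Rac needed for myoblast fusion and phagocytosis. Over the whole gene, which passes the right limit, the H2O2 libraries had 0 and 0 summits and covered 0% and 0% of its length. The control libraries had 9 and 14 summits and covered 83.3% and 32.9%. The control lists agreed on the gene but not on the shape of its peaks. Control replicate 1 had the widest peak of the domain there, 7531 bp (3R 23781788 to 23789318, percentile 98.9, fold 2.98), whereas within those limits control replicate 2 had 2 peaks, the higher at percentile 61.0. Other mbc regions of the control libraries alone included one of 4020 bp (3R 23792796 to 23796815, lowest percentile 79.9), one of 2373 bp (3R 23789532 to 23791904, 70.1) and one of 1125 bp (3R 23797840 to 23798964, 63.8).

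By bin, both H2O2 libraries exceeded both control libraries in 21 of the 45 bins of the domain (46.7%), against 7.08% of all 10 kb bins of the arms. Both control libraries exceeded both H2O2 libraries in 6 bins (13.3%), against 4.36% on the arms. All 4 libraries had a summit in 9 bins (20%), against 2.38% on the arms, and 5 bins had none in any library. Since the window was chosen for its peaks, these shares say nothing beyond the choice.

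Merging peaks that overlap by at least 1 bp gave 211 regions with a summit in the domain. Of these, 34 (16.1%) were called in both H2O2 libraries and neither control library, against 7.04% of all regions of the arms, and 33 of the 34 lay in the H2O2-dense stretch. Both control libraries and neither H2O2 library had 18 (8.53%), against 5.53% on the arms, of which 5 lay in the left block, 1 in the H2O2-dense stretch, 6 in the control-dense stretch and 6 over mbc in the right part. All 4 libraries had 7 (3.32%), against 1.54% on the arms. Of these, 6 lay in CG31145, and each had a percentile of at most 14.3 in at least 1 library. The median width was 605 bp for the H2O2 regions and 787 bp for the control regions, compared with 456 and 785.5 bp on the arms. The counts rest on each list being complete: with H2O2 replicate 1 alone standing for its group there were 137 H2O2 regions, and with control replicate 1 or 2 alone there were 41 or 28 control regions.

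By gene, 11 of the 65 protein-coding genes (16.9%) had a summit in both H2O2 libraries, against 5.65% of protein-coding genes on the arms. They were CG4393, CG4374, Ir94f, Ir94g, Irk2, CG10175, Ugt303B3, beat-IV, CG10182, CG10184 and CG31145. Both control libraries had a summit in 9 genes (13.8%), against 6.28% on the arms, namely PolE1, ATPsynCF6, Sec13, RpS3, CG4374, beat-IV, CG31145, eIF3d1 and mbc. The genes with a summit in all 4 libraries were CG4374, beat-IV and CG31145, 4.62% of the domain's genes against 1.82% on the arms, and all are over 20 kb long. No summit of any library lay in 30 of the 65 genes. The same share over the arms is not given here, so this count cannot be read as a lack of summits.

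The domain stood near the top of all windows of its length in every library, as its choice implies. Among 2625 windows of 450 kb placed every 50 kb on the arms, which overlap each other and include the domain, at least as many summits as in the domain were found in 8 for H2O2 replicate 1, 6 for H2O2 replicate 2, 5 for control replicate 1 and 14 for control replicate 2. The median window held 9, 9, 11 and 8 summits in the same order of libraries. The domain was the only window to reach its own counts in all 4 libraries at once. By the rule for stretches the arms held 561 H2O2-dense stretches with a median of 8 bins. The stretch of 24 bins described here was 1 of 62 of at least its length, and 0 of the others reached its summit density in both H2O2 libraries. Since the window was picked for dense peaks and the stretch was drawn from its summits, this rank too follows from the choice.

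Control summits lay close to both limits of the domain. On the left the nearest summits outside and inside the limit lay 74942 and 29122 bp from it in H2O2 replicate 1 and 43558 and 12451 bp in H2O2 replicate 2, against 5100 and 1000 bp in control replicate 1 and 6307 and 2717 bp in control replicate 2. On the right they lay 152800 and 48457 bp from the limit in H2O2 replicate 1 and 2479 and 99432 bp in H2O2 replicate 2, against 352 and 805 bp in control replicate 1 and 662 and 293 bp in control replicate 2, all of these control summits being inside mbc. The 100 kb left of the domain held 1 and 5 H2O2 summits and 34 and 26 control summits, and the 100 kb right of it held 0 and 2 against 2 and 1.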

How the data were processed

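Per the submitters' processing notes the authors used Picard and MACS2 on build dm6. The sources used here name neither versions and options nor the background library. Each deposited list gives a score, a fold enrichment (a linear ratio over the caller's background, by the authors), and a p-value and a q-value, both deposited as −log10. The lowest deposited −log10 p-value was 2.00 and no peak was narrower than 200 bp. Read depth is unknown. The deposited score was not used.

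Summits were placed as peak start plus offset. Gene intervals came from the RefSeq table of Release 6, the assembly of dm6, without strand or exons, with 13922 protein-coding genes on the arms. Percentiles of the fold were computed over each library's arm peaks. Groups were compared by exact two-sided permutation over 4 libraries. The functions were tested on simulated data. Python 3.11.15, numpy 2.4.6, pandas 2.3.3 and scipy 1.17.1 were used.

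The domain, its members and the rules were chosen with earlier results of these data known. Named genes were the 10 with the most summits per group, those of regions of all 4 libraries and those at switches. The 5 longest without summits and those at the edges were named as well. Named regions were the 5 highest of each group by their lowest percentile. The regions of all 4 libraries were counted, and only that with the highest H2O2 peak is given by position. The other Ir94, Ugt303B, GILT and right-part genes and CG34289, which marks the limit of a gap, were named after their values were seen. Labels share replicate numbers without saying that they pair libraries, so the comparisons use no block and a replicate block was run as an alternative. Peak lists hold no measure of cell type markers. The values of 1 gene of the right part are not reported here.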

Additional observations from a re-analysis of the deposited data

How the results depend on the processing

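Of 139 values recomputed under the alternatives, 93 kept their direction and, for counts and shares, stayed near the value given, 38 moved further and 8 turned. The share of summits inside genes and the median fold percentile kept the direction of their means in every alternative run, the percentile difference at 4.03 to 23.04 points with each library left out. At q of 1e-05 or less the share in genes, 68.75% in H2O2 and 100% in control, rested on 8 and 1 against 11 and 4 peaks. The 1 peak of H2O2 replicate 2 lay in CG10175, so the groups met in that setting. At q of 1e-05 or less the log2 ratio of H2O2 over control turned to -0.74 for summits and -1.41 for bp covered, with 0 bins higher in both H2O2 libraries, 2 bins higher in both control libraries, 0 H2O2 regions, 3 control regions and 0 regions of 4 libraries. The share of H2O2 summits in H2O2-dense stretches and that of control summits in control-dense stretches were both 100%. Stretches were redrawn from the kept peaks in each setting, so with so few peaks this value largely follows from the drawing. With the limits of the segments above held fixed, 1 of these peaks of H2O2 replicate 1 lay in the control-dense stretch. The left block, which is no stretch inside the domain, held 4 and 3 of the control peaks. At q of 0.01 or less there were 13 bins higher in both H2O2 libraries, 17 H2O2 regions, 11 control regions, 0 regions of 4 libraries and 78.2% of control summits in control-dense stretches. With lists of equal length (the 2988 peaks of highest fold) these were 13 bins, 14 H2O2 regions and 1 region of 4 libraries, with 89.0% of control summits in control-dense stretches and a difference in median width of 53.5 bp. With each library left out in turn the ranges were -0.52 to 1.23 for the log2 ratio of bp covered, -50.5 to 45 bp for the difference in median width, 6 to 11 bins higher in control, 37 to 137 H2O2 regions, 22 to 41 control regions and 49.0% to 71.8% for the share of control summits in control-dense stretches. That share was 71.1% over 2 stretches with all libraries, and the 49.0%, without control replicate 1, covers 1 stretch. Regions of all remaining 3 libraries numbered 10 to 14, which is not comparable with the 7 of 4 libraries, and region counts with 1 library standing for its group ask for fewer libraries as well. Drawing the limits in by 50 kb gave a difference in median width of 34.0 bp, 3 bins higher in control, 7 control regions and a share in control-dense stretches of 77.0%, and moving them out by 50 kb gave 8.25 bp, 11 bins, 30 control regions and 89.4%. Bins of 5 kb gave 88.5% for that share and bins of 20 kb gave 13 bins higher in H2O2, of fewer and wider bins. A reciprocal overlap of 50% left 11 H2O2 regions, 7 control regions and 3 regions of 4 libraries, and summits within 100 bp left 15 H2O2 and 0 regions of 4 libraries. The cause of these changes was not tested.

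With a replicate block the log2 ratio was 0.85 for summits and 0.43 for bp covered, with the differences in width, share in genes and percentile at -2.75 bp, -28.0 points and 13.5 points. The deviations of same-numbered libraries correlated at 0.0563 over 13383 bins of the arms and at -0.103 over the 45 bins of the domain. With the limits of the H2O2-dense stretch held fixed, an alternative chosen after seeing the data, mean H2O2 minus control summits was 89.0 as deposited, 60.5 at q of 0.01 or less, 4.0 at q of 1e-05 or less, 46.0 with lists of equal length and 44.5 to 133.5 with each library left out. At q of 0.01 or less the stretch held 100 and 24 H2O2 summits against 2 and 1 control summits, and at q of 1e-05 or less 7 and 1 against 0 and 0.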
